A study of Homo sapiens with 6 samples.

Results

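The transcriptional output of the Hippo pathway was described through 10 genes: the co-activators YAP1 and WWTR1 (the gene of TAZ), the DNA-binding factors TEAD1, TEAD2, TEAD3 and TEAD4, the kinases LATS1 and LATS2, and the targets CCN1 and CCN2. They were chosen by name, with earlier results of these data known, and all 10 were found among the 17170 genes of the deposited table. Polyadenylated RNA was sequenced from 6 samples of NCI-H69, a long-used line of small cell lung cancer. In 3 of them the cells carried a non-targeting control guide RNA, and in the other 3 SCRMP, the product of the MIR7-3HG open reading frame, had been knocked out with CRISPR/Cas9. All 6 were stably engineered cells of the same parental line, and the labels do not say whether they were clones or pools. No column of the table carried a name given for a knockout sample, so the values describe the 3 libraries labelled control, and no comparison between genotypes was made. A value is given in TPM, a share of all transcripts with a fixed total and corrected for length, so that genes can be compared with each other.

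In the Hippo pathway, the kinases STK3 and STK4 with their scaffold SAV1 activate LATS1 and LATS2, which with MOB1 phosphorylate YAP1 and TAZ. Phosphorylated YAP1 and TAZ are held in the cytoplasm or degraded, whereas the unphosphorylated proteins enter the nucleus. There they bind TEAD factors, because neither co-activator binds DNA on its own, and switch on genes such as CCN1 and CCN2. RNA levels do not report this phosphorylation. Neuroendocrine small cell lung cancer lines usually have little YAP1, and YAP1 is found in the less common non-neuroendocrine lines.

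The 3 control libraries held 20941185 to 22477571 estimated reads, and their median gene had 6.87 TPM. The labels place small cell lung cancer cells in every library. Of 9 measured neuroendocrine markers, 1 was detected, meaning at 1 TPM or more in all 3 libraries: NCAM1 at 25.7 TPM ± 3.66 (SD, n = 3). The defining markers INSM1, SYP and CHGA lay at 0.650, 0.717 and 0.0800 TPM, and the 9 markers summed to 23.6 to 31.5 TPM. MYCN, which NCI-H69 is known to carry in many copies, had 0.203 TPM ± 0.146. By contrast, 9 of 10 fibroblast markers were detected, compared with 3 of 8 epithelial, 3 of 7 leukocyte and 0 of 6 endothelial markers. Of all genes of the table, 66.5% were detected. The 10 fibroblast markers summed to 1701 to 1878 TPM, most of it from POSTN, COL3A1 and TWIST1, at 694, 568 and 321 TPM. PDGFRB, at 0.533 TPM, was the 1 not detected. These are bulk libraries, in which few cells with much RNA and many cells with little cannot be told apart. These marker levels differ from those usually described for NCI-H69, and the identity of the cells was not tested, so the levels below are those of the libraries labelled control and may not be typical of the line. The labels call the libraries biological replicates without saying how far back the cultures were separate, so each SD measures the spread between these 3 libraries only.

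All 10 genes were detected, against 66.5% of all genes of the table, and 6 of the 10 had a mean of at least 10 TPM, against 44.1% of all genes. YAP1 was the highest and CCN2 the lowest. Their median was 15.0 TPM ± 0.696, compared with 6.83 TPM ± 0.461 for all genes. CCN2 was the only member whose mean was below that of the median gene.

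**Figure D1:**
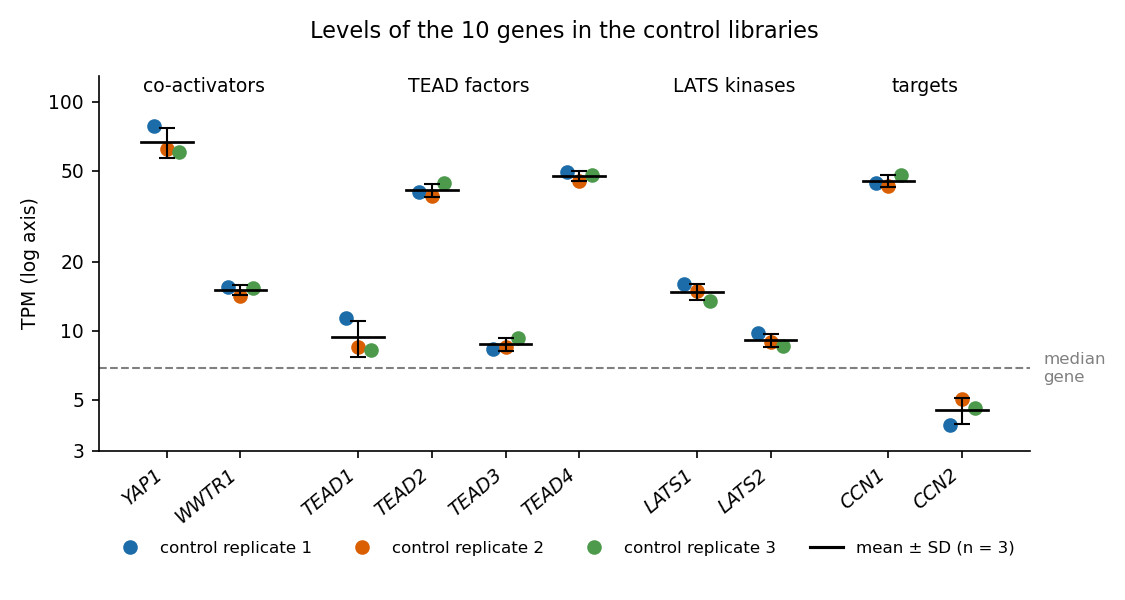
TPM (log axis) of each of the 10 genes in the 3 control libraries, grouped by role, with the mean and SD as black bars and the median gene as a dashed line. YAP1 lies between 60.2 and 78.7 TPM, above all others, and CCN2, between 3.87 and 5.04 TPM, is the only gene below the dashed line.

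YAP1, the main co-activator (gene number 10413, chromosome 11, 102110447 to 102233424, GRCh38.p14), had 78.7, 62.1 and 60.2 TPM in control replicates 1, 2 and 3. Replicate 1 stood above the other libraries, which were close to each other. The mean was 67.0 TPM ± 10.2, which placed YAP1 at rank 2079 of all genes, or 3.29 above the median gene on the log2 scale. The coefficient of variation of 15.2% was far above the 1.51% that counting alone gives for 4155 to 4870 estimated reads per library. YAP1 was the highest of the 10 genes with or without replicate 1, since the mean of the other libraries was 61.1 TPM.

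WWTR1, which encodes the paralog TAZ (gene number 25937, chromosome 3, 149517235 to 149724788), had 15.5, 14.2 and 15.5 TPM in replicates 1 to 3. The libraries were nearly level, and the mean was 15.1 TPM ± 0.725. YAP1 exceeded WWTR1 in 3 of 3 libraries, by 2.34, 2.12 and 1.96 on the log2 scale. The mean difference was 2.14 ± 0.19 (SD, n = 3), or 4.44-fold ± 0.596, and the ranges of both genes lay far apart. WWTR1 therefore made up 18.5% ± 1.99 of the summed TPM of both co-activators, the rest being YAP1. With 3 libraries of a single group, an exact two-sided sign-flip test cannot go below p = 0.25, so differences between genes are given with their spread and without a test.

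The TEAD factors, which bring YAP1 and TAZ to DNA through a shared TEA domain, fell into a higher and a lower pair. TEAD4 (gene number 7004, chromosome 12, 2959397 to 3040676) had 49.6, 45.2 and 47.7 TPM, with a mean of 47.5 TPM ± 2.17. TEAD2 (gene number 8463, chromosome 19, 49340595 to 49362416) had 40.3, 38.9 and 44.3 TPM, with a mean of 41.2 TPM ± 2.82. TEAD4 was above TEAD2 in 3 of 3 libraries, by 0.21 ± 0.10 on the log2 scale, and their ranges did not overlap, although the highest TEAD2 value and the lowest TEAD4 value lay close together.

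TEAD1 (gene number 7003, chromosome 11, 12674421 to 12944737), the founding member of the family, had 11.3, 8.54 and 8.25 TPM. Replicate 1 was again the high library, and the coefficient of variation of 18.1%, against 3.01% from counting, was the highest among the 10 genes. TEAD3 (gene number 7005, chromosome 6, 35473597 to 35497079) had 8.35, 8.50 and 9.35 TPM. The means were 9.37 TPM ± 1.70 for TEAD1 and 8.73 TPM ± 0.539 for TEAD3, and their ranges overlapped. Both lay below TEAD2 and TEAD4 in every library, and TEAD4 was 5.15-fold ± 0.717 above TEAD1.

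Of the summed TPM of the 4 TEAD genes, TEAD4 took 44.5% ± 0.875 and TEAD2 38.6% ± 1.82. TEAD1 took 8.77% ± 1.44 and TEAD3 8.18% ± 0.490. These shares rest on the division by transcript length: in estimated reads, which are not divided by length, TEAD1 held 32.1%, TEAD2 30.5%, TEAD4 27.9% and TEAD3 9.44%. The length that each gene's reads per TPM imply was 9.58 kb for TEAD1, 1.64 kb for TEAD4, 2.06 kb for TEAD2 and 3.00 kb for TEAD3. The longest annotated transcripts of TEAD4 and TEAD3 (GENCODE release 29) had 1.69 and 2.98 kb, close to the implied values. That of TEAD2 had 2.44 kb, longer than implied, and that of TEAD1 had 8.48 kb, shorter than implied. Together the TEAD genes summed to 107 TPM ± 4.88 and the co-activators to 82.0 TPM ± 10.5. The ratio was 1.16, 1.33 and 1.45 in replicates 1 to 3, above 1 in 3 of 3 libraries. This direction rests on the division by length as well, since in estimated reads the ratio was 0.595, 0.651 and 0.691.

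**Figure D2:**
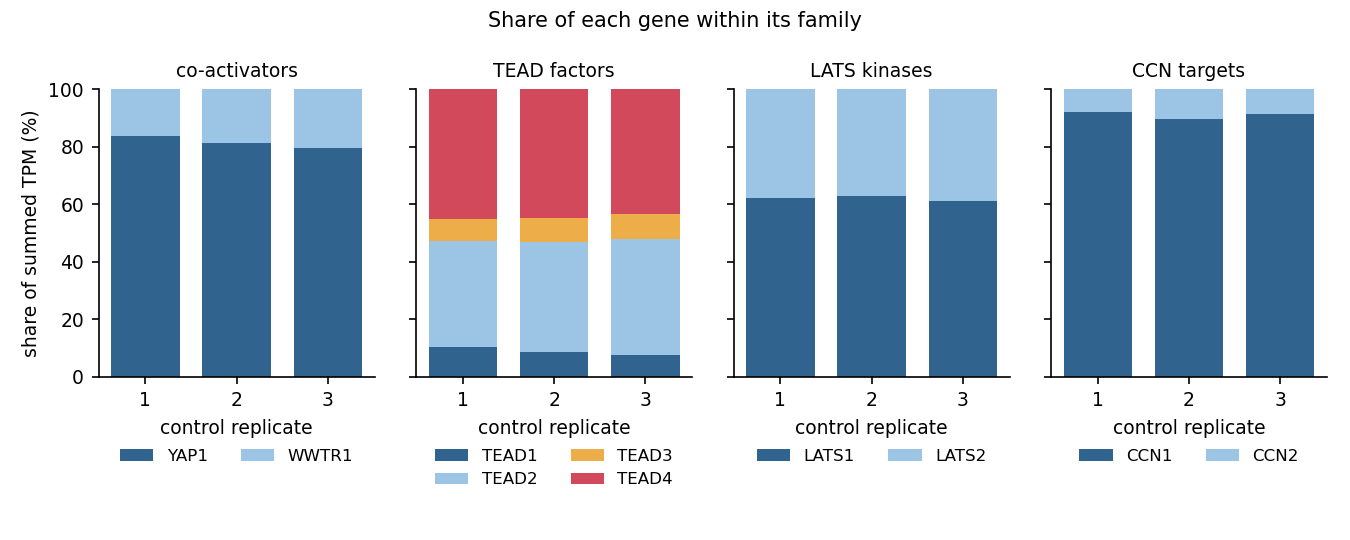
Stacked bars give each gene's share of the summed TPM of its family (y axis, percent) in each control replicate (x axis). YAP1 holds 79.6% to 83.5% of the co-activators, TEAD4 and TEAD2 together most of the TEAD total, LATS1 61.2% to 62.7% of the kinases and CCN1 89.5% to 92.0% of the target pair.

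LATS1 and LATS2, the kinases that phosphorylate YAP1 and TAZ, were both expressed. LATS1 (gene number 9113, chromosome 6, 149658153 to 149718101) had 16.0, 15.0 and 13.6 TPM, with a mean of 14.9 TPM ± 1.24. LATS2 (gene number 26524, chromosome 13, 20973036 to 21061586), which is also a target of YAP1, had 9.76, 8.91 and 8.58 TPM, with a mean of 9.08 TPM ± 0.609. Replicate 1 was the highest for both kinases, and their ranges did not overlap. LATS1 exceeded LATS2 in 3 of 3 libraries by 0.71 ± 0.05 on the log2 scale, and this difference varied less between libraries than either level. YAP1 stood 4.50-fold ± 0.387 above LATS1.

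The targets CCN1 and CCN2, which encode secreted matrix-associated proteins and are widely used as readouts of YAP1 and TAZ, lay far apart. CCN1 (gene number 3491, chromosome 1, 85580761 to 85583950) had 44.4, 42.8 and 48.0 TPM, with a mean of 45.1 TPM ± 2.70. CCN2 (gene number 1490, chromosome 6, 131948176 to 131951372) had 3.87, 5.04 and 4.61 TPM, with a mean of 4.51 TPM ± 0.592. CCN1 was the higher in 3 of 3 libraries, by 3.33 ± 0.22 on the log2 scale or 10.1-fold ± 1.52. Transcripts of both genes have about the same implied length, 2.28 and 2.34 kb, so this gap was nearly the same in estimated reads, at 3.29. CCN2 rested on 105, 149 and 139 estimated reads, and counting alone gives a coefficient of variation of 8.73% at that depth, against 13.1% observed. In the wider CCN family, CCN3 had 44.2 TPM ± 0.876, a range that overlapped that of CCN1, and CCN4, CCN5 and CCN6 were each listed below 1 TPM in every library.

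The upstream sequence of CCN2 is shown because it carries a dense group of TEAD motif matches although CCN2 was the lowest of the 10 genes. The motif searched was GGAATG, or CATTCC on the other strand, the core of the element bound by TEAD factors, in RefSeq windows of 300 bases that reach from 250 before to 50 after a start site. Windows were found for 7 of the 10 genes and not for TEAD1, TEAD4 and CCN1. The 250 bases before the CCN2 start site (GRCh38.p14, chr6:131951373-131951622, minus strand) hold 3 matches, in capitals, which begin 169, 104 and 95 bases upstream of the start site. YAP1 has 1 match, 162 bases upstream, in the stretch chr11:102110273-102110302 (plus strand), and LATS2 has 1 match, 9 bases past the start site, in chr13:21061560-21061589 (minus strand).
CCN2: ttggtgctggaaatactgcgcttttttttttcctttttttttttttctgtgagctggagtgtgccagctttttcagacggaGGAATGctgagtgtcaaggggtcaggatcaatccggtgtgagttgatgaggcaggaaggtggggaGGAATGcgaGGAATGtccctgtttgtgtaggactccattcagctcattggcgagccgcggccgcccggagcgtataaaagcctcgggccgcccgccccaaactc
YAP1: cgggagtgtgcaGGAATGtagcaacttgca
LATS2: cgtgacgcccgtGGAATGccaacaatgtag

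The windows of WWTR1, TEAD2, TEAD3 and LATS1 held no match. Of the 7 genes with a window 3 held a match, or 42.9%, against 16.7% of 27305 genes with a window. Among the latter, 0.165% had a window with 3 or more matches, as CCN2 did. Of all 35116 windows 14.0% held at least 1 match, and 0.128% held 3 or more. The share among 7 genes was not tested. A match is a run of letters and not a measured binding site.

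In the order of the means, YAP1 came before TEAD4, CCN1, TEAD2, WWTR1, LATS1, TEAD1, LATS2, TEAD3 and CCN2. The ranges of neighbours did not overlap at 4 of the 9 steps: between YAP1 and TEAD4, TEAD2 and WWTR1, LATS1 and TEAD1, and TEAD3 and CCN2. The largest of these steps was from TEAD2 to WWTR1, 1.45 ± 0.07 on the log2 scale. TEAD4 and CCN1 overlapped, as did CCN1 and TEAD2, although CCN1 was above TEAD2 by 0.13 ± 0.01 within 3 of 3 libraries. WWTR1 and LATS1 overlapped, and so did TEAD1, LATS2 and TEAD3, whose order among themselves is not settled by these libraries.

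Most other kinases and scaffolds of the pathway were detected. Of 22 measured genes upstream of LATS or acting beside it, 21 were detected, or 95.5% against 66.5% of all genes, at a median level of 14.4 TPM ± 0.701. The highest were the scaffold gene SAV1 (60.1 TPM ± 4.33), the kinase gene MAP4K3 (42.7 TPM ± 4.19) and STK38L, a relative of the LATS kinases (40.9 TPM ± 3.80). SAV1 was thus close to YAP1 in level, whereas the kinases it joins were lower, STK3 at 16.7 TPM ± 1.11 and STK4 at 9.15 TPM ± 1.11. The LATS cofactor gene MOB1A had 32.8 TPM ± 3.40 and its paralog MOB1B 7.98 TPM ± 0.877. NF2, whose product merlin recruits LATS to the membrane, had 9.32 TPM ± 1.17. MAP4K1, a kinase of blood cells, was the exception at 0.310 TPM ± 0.0755.

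Of 20 genes whose products bind YAP1, TAZ or LATS or mark YAP1 and TAZ for destruction, 18 were detected, or 90.0% against 66.5% of all genes, and their median level was 24.7 TPM ± 2.24. Most of these products restrain YAP1 and TAZ, but AJUBA, LIMD1 and WTIP, at 22.04, 2.62 and 3.65 TPM, restrain LATS. The highest were YWHAE, YWHAG and YWHAQ, genes of adaptor proteins that bind phosphorylated YAP1 and many other proteins, at 425 TPM ± 7.65, 275 TPM ± 16.3 and 250 TPM ± 9.67. Among the angiomotins, which bind YAP1 directly, AMOTL2 had 21.1 TPM ± 0.558, AMOT 13.7 TPM ± 1.11 and AMOTL1 6.25 TPM ± 0.679. SFN, an epithelial YWHA relative, had 1.04 TPM ± 0.203 and missed 1 TPM in 1 library.

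Genes of STRIPAK, the phosphatase complex that removes activating phosphates from STK3 and STK4, were measured in 17 cases and detected in 16, or 94.1% against 66.5% of all genes, and their median level was 28.8 TPM ± 1.15. The phosphatase genes PPP2CB and PPP2CA, which serve many complexes, led at 118 TPM ± 1.08 and 99.2 TPM ± 1.36, followed by the kinase gene STK25 at 72.7 TPM ± 4.59. TRAF3IP3 was listed at 0 in all 3 libraries. Of the polarity and FAT cadherin genes, 11 of 18 were detected, a share of 61.1% that is near the 66.5% of all genes, and the median was 2.89 TPM ± 0.283. PARD3, PALS1 and DLG1 had 29.5 TPM ± 1.87, 17.1 TPM ± 1.39 and 16.9 TPM ± 1.33, whereas CRB1, FAT2 and FAT3 lay at 0.00667, 0.0233 and 0.0267 TPM. FAT1 was the main FAT cadherin at 15.3 TPM ± 3.46. Of the VGLL cofactors, which compete with YAP1 for TEAD, VGLL4 had 43.6 TPM ± 3.85, and VGLL2 and VGLL3, neither of them detected, 0.480 TPM ± 0.184 and 0.0967 TPM ± 0.0153.

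**Figure D3:**
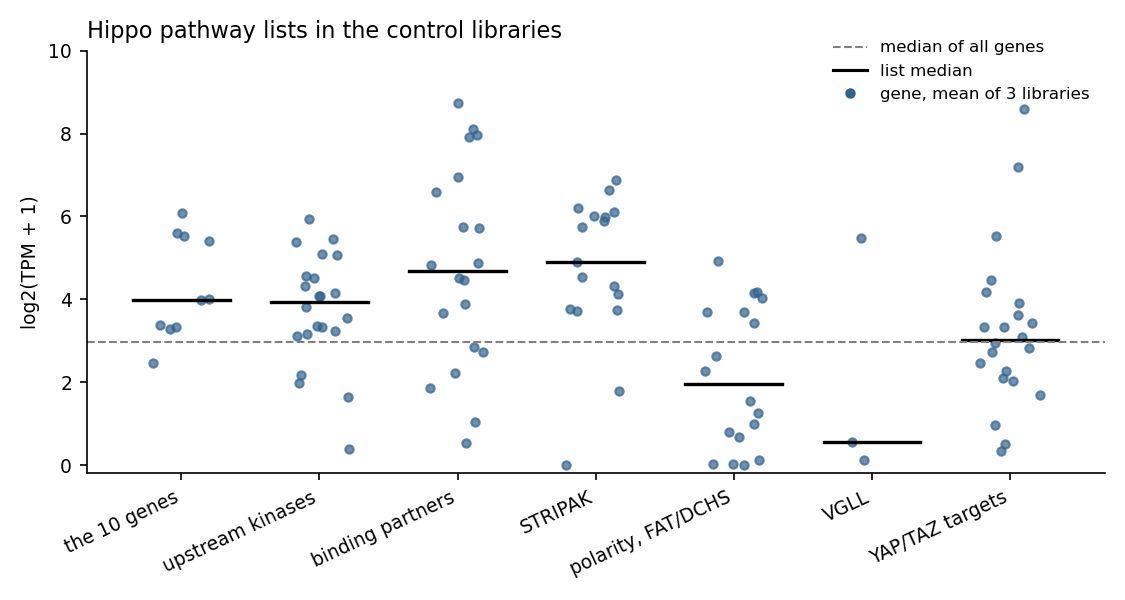
Each point is a gene's log2(TPM + 1) from its mean over the 3 control libraries, for the 10 genes and the pathway lists, with the list median as a bar and the median of all genes as a dashed line. The medians of the upstream kinases (14.4 TPM), binding partners (24.7 TPM) and STRIPAK (28.8 TPM) lie above the dashed line (6.83 TPM), those of polarity genes (2.89 TPM) and VGLL cofactors (0.480 TPM) below, and that of the targets (7.13 TPM) close to it.

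A list of 22 genes known as common targets of YAP1 and TAZ across cancers, which holds CCN1, CCN2 and LATS2, was spread over more than 3 orders of magnitude. Of these, 19 were detected, or 86.4% against 66.5% of all genes, but only 7 had a mean of at least 10 TPM, or 31.8% against 44.1%. The median was 7.13 TPM ± 0.283, which on the log2(TPM + 1) scale lay 0.05 ± 0.05 from that of all genes, about the size of the spread between libraries. In estimated reads, not divided by length, the list lay 0.79 above all genes. The highest were IGFBP3, a secreted binding protein of insulin-like growth factors, at 387 TPM ± 26.8, the stress gene GADD45A at 144 TPM ± 4.95, and CCN1. Of the inhibitors that YAP1 and TAZ induce as feedback, AMOTL2 ranked above LATS2 and PTPN14 (5.67 TPM ± 0.684). The lowest were NT5E and ANKRD1, at 0.270 TPM ± 0.0854 and 0.423 TPM ± 0.134, and NUAK2, which had 1.07, 0.680 and 1.09 TPM and missed 1 TPM in replicate 2.

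Of 16 target genes with a RefSeq window, 9 held the GGAATG match in at least 1 window, or 56.2%, against 16.7% of 27305 genes with a window. The list was assembled elsewhere from genes that depend on YAP1 and TAZ, so this share says nothing about these cells. Matches occurred above and below the level of the median gene. AMOTL2 and AXL (11.2 TPM ± 0.592) had 1 each, in 1 of 2 windows, and ANKRD1 and NUAK2 had 2 each. The windows of IGFBP3, the highest target, and NT5E, the lowest, held none. GADD45A and CCN1, the next highest targets, had no window.

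**Figure D4:**
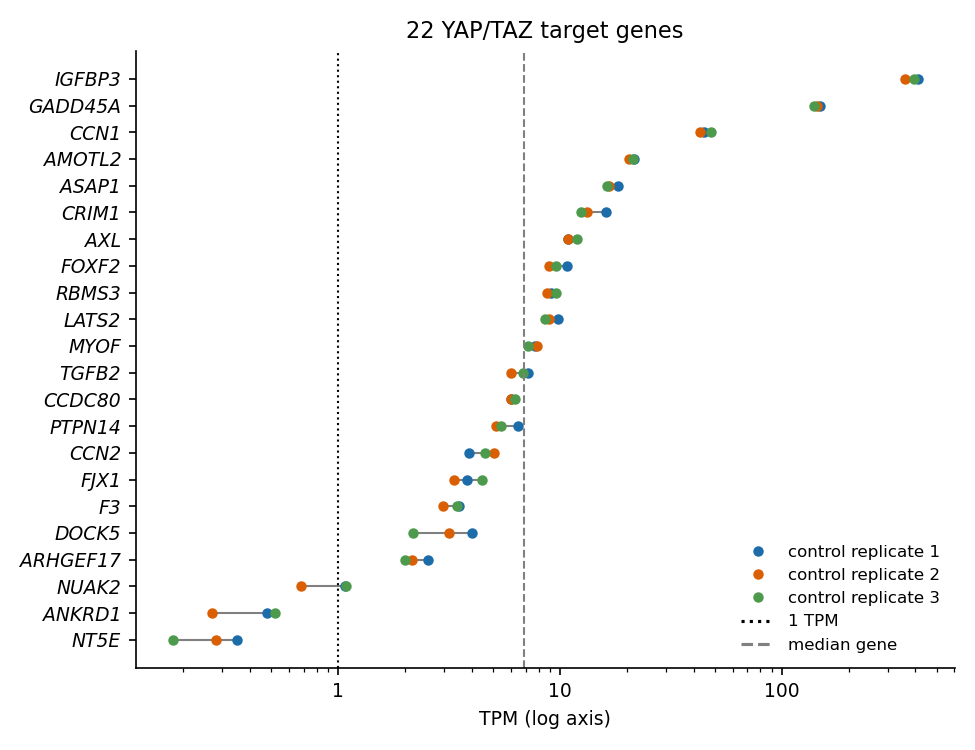
TPM (log axis) of 22 YAP/TAZ target genes in the 3 control libraries, joined by a line per gene, with dashed and dotted lines at the median gene and at 1 TPM. IGFBP3 (387 TPM) and GADD45A (144 TPM) stand above the rest, CCN2 (4.51 TPM) lies below the median gene, and ANKRD1 and NT5E stay below 1 TPM in all libraries.

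The control libraries also differed from each other by transcript length. Among genes of at least 10 TPM, replicate 1 lay a median of 0.17 above the mean of replicates 2 and 3 on the log2 scale for 1853 genes with an implied length over 4 kb. Compared in the same way with the other libraries, replicate 3 lay at -0.14 and replicate 2 at -0.03 for these genes. For 2540 genes under 2 kb the median of replicate 1 was near 0, at -0.000937. TEAD4, the only member of that length, lay at 0.093, past the upper quartile of 0.079 of these short genes. YAP1, with an implied length of 5.33 kb, lay 0.36 above in replicate 1, and TEAD1 0.43, both past the upper quartile of 0.28 of the long genes. LATS1 and LATS2, at 0.17 and 0.16, lay close to the median of that class, and WWTR1, at 0.06, below its lower quartile of 0.07. For 3184 genes of 2 to 4 kb the median of replicate 1 was 0.06, with quartiles of -0.03 and 0.16. The members of that length went the other way, CCN2 at -0.32, TEAD3 at -0.09, TEAD2 at -0.04 and CCN1 at -0.03. TEAD1, LATS2, TEAD3 and CCN2 had means below 10 TPM and so are not among the genes of these length classes. The part of transcript length in the spread of single genes was not tested.

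Replicate 1 was the highest library for 6 of the 10 genes, or 60.0%, against 57.7% of all detected genes. Over all pathway genes that were detected it was the highest for 70 of 90, or 77.8%, against the same 57.7% of all detected genes and 80.8% of those with an implied length of 4 kb or more. The pathway genes are of all lengths, and their share at 4 kb or more was not computed. Neither background is therefore matched to them for length.

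**Figure D5:**
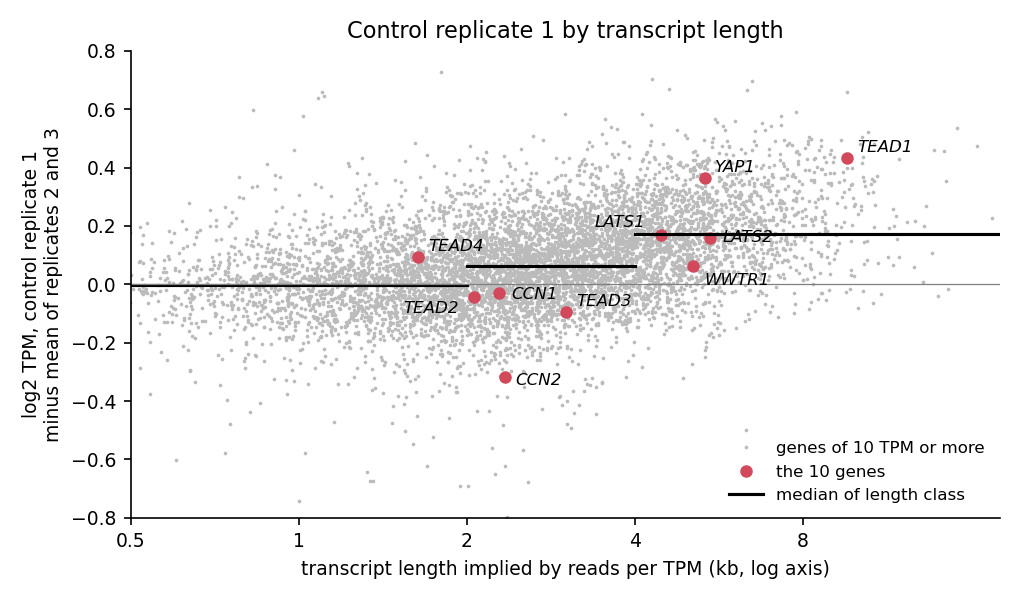
The y axis gives log2 TPM in control replicate 1 minus the mean of replicates 2 and 3, and the x axis the transcript length implied by reads per TPM (kb, log axis), for 7577 genes of at least 10 TPM (grey, 84 lie outside the axes) and the 10 genes (red), with the medians of 3 length classes as bars. YAP1 and TEAD1 lie 0.36 and 0.43 above 0, over the median of 0.17 for long transcripts, and CCN2 lies at -0.32.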

How the data were processed

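RNA was measured in 6 samples, of which the 3 labelled control were used. Per the submitters' processing notes, the build was GRCh38 and the tools included HISAT2, StringTie and DESeq2, and the sources used here do not give their versions, their roles or the annotation. Per gene and library, the authors deposited TPM, FPKM and estimated read counts (expected counts), per the file headers. Columns were matched to samples by name. A further 12 columns of values carried names with si_A, which matched no sample label. These columns were used in no step, so the genotypes were not compared.

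From the TPM, means and SDs over 3 libraries, log2 differences and family shares within each library, and list medians were computed. Detected means at least 1 TPM in all 3 libraries. Implied lengths are reads per TPM, scaled on 480 genes with 1 GENCODE transcript and at least 100 reads. The calculation was tested on simulated data in which each gene has 1 fixed length. That test cannot cover genes with several transcripts. Promoter windows, positions and gene numbers come from RefSeq (GRCh38.p14). The members and lists were chosen with earlier results of these data known. Named genes are the 10 members and, per list, the 3 highest and up to 3 lowest under 1 TPM in every library, of which 1 gene is not reported here and stays in the counts of its list. STK3, STK4, MOB1A, MOB1B, NF2, AMOT, AMOTL1, AMOTL2, SFN, FAT1, PTPN14, NUAK2, CCN3 and the cell type markers were named after their values were seen. The same holds for AJUBA, LIMD1, WTIP and AXL. With libraries of a single group, no gene was named for a similar pattern. Alternatives were FPKM, estimated reads, other minimum levels, other pseudocounts, TPM without the 100 highest genes and leaving out each library. Depth was 20941185 to 22477571 estimated reads, and counting errors take each estimated read as independent. Python 3.11.15, pandas 2.3.3, numpy 2.4.6 and matplotlib 3.10.9 were used.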

Additional observations from a re-analysis of the deposited data

How the results depend on the processing

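Of 152 alternative values, 129 moved by less than the SD between libraries, or for counts by less than 1.5 times. A further 22 moved by more and 1 changed sign. The total of 129 is no measure of robustness, because most settings could hardly move a value. FPKM and TPM without the highest genes rescale each library, which leaves shares and differences between genes nearly unchanged, and each left 24 values the same. Leaving out a library reuses the others, so a mean shifts little against the SD. Estimated reads moved 17 values, reversed 1 and left 6 the same. The value that changed sign was the log2 ratio of summed TEAD to summed co-activator levels, 0.39 in TPM and -0.63 in estimated reads. The alternatives for this ratio were chosen after seeing the data. With estimated reads in place of TPM, so without division by length, the log2 distance from the median gene became 3.86 for YAP1, 1.64 for WWTR1, 1.87 for TEAD1, 1.79 for TEAD2, 0.0939 for TEAD3, 1.66 for TEAD4, 1.43 for LATS1, 1.01 for LATS2, 2.06 for CCN1 and -1.22 for CCN2. TEAD1, TEAD2, TEAD3 and TEAD4 then held 32.1%, 30.5%, 9.44% and 27.9% of the TEAD total, and LATS2 42.8% of both kinases. LATS1 exceeded LATS2 by 0.42, and the median of the targets lay 0.79 above that of all genes. With a pseudocount of 1 in ratios, LATS1 exceeded LATS2 by 0.65 and CCN1 exceeded CCN2 by 3.07. Without each library in turn, TEAD3 ranged from 0.26 to 0.44 and CCN1 from 2.63 to 2.78 in log2 distance from the median gene, against 0.35 and 2.71. With a minimum of 5 TPM, 9 members and 14 targets counted as detected. The share of all genes at this minimum was not computed, so these counts have no background beside them. Depth limits CCN2 most among the members. No paired analysis was possible because the knockout samples have no columns that match their labels.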
